A study of Mus musculus with 29 samples.

Results

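The noncoding snoRNA host genes Gas5, Snhg1, Snhg3, Snhg5, Snhg6, Snhg8 and Snhg12 are described here across blood stem and progenitor cells of mice that lack Mysm1, Puma or both. They were taken by name from the count tables, with earlier results of these data known, and are 7 of 23366 genes counted in each of 29 libraries. A snoRNA host gene is transcribed, spliced and, in most cases, stripped of introns that carry small nucleolar RNAs. Those released snoRNAs guide the chemical marking of ribosomal RNA: C/D snoRNAs guide 2′-O-methylation with the methyltransferase fibrillarin, and H/ACA snoRNAs guide pseudouridylation with dyskerin. The spliced host RNAs are long noncoding RNAs whose start sites often lie at a run of pyrimidines, and several of them, Gas5 among them, are known to be removed by nonsense-mediated decay.

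Lineage-negative, cKit+, Sca1+ bone marrow cells of C57BL/6 mice aged 8 to 12 weeks, with each library's sex given as pooled male and female, were sorted by the surface receptor CD150 into a CD150NEG and a CD150POS population. Wild-type mice gave 3 CD150NEG and 4 CD150POS libraries, Puma-/- mice gave 3 and 2, Mysm1-/-Puma+/- mice gave 3 and 4, and Mysm1-/-Puma-/- mice gave 3 and 7. Mysm1 encodes a deubiquitinase of histone H2A and Puma, the product of Bbc3, is a cell death protein induced by p53. Per the submitters, Mysm1-/-Puma+/- mice stood for Mysm1-/- mice, so no library lacked Mysm1 with both Puma alleles intact. Library codes start with D or W in wild-type mice, with C in Puma-/- mice, with A in Mysm1-/-Puma+/- mice and with either B or P in Mysm1-/-Puma-/- mice. The meaning of the double codes C1-4, C2-5 and D3-4 was not given in the sources used here.

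Library totals ran from 28066870 to 54339749 counts in CD150NEG and from 12304713 to 35034318 counts in CD150POS cells. Slamf1, which encodes CD150, lay between 0.22 and 2.30 CPM (counts scaled to a common library total) in CD150NEG and between 11.0 and 30.4 CPM in CD150POS libraries, and Kit was at 449 CPM or more in every library. Mysm1 was counted in every library, at 66.4 to 132 CPM, and the deleted part of the gene was not given, so its count did not check the labels. The summed level of 1464 olfactory, vomeronasal and trace amine receptor genes, used as a measure of background reads, exceeded 1.5 times the median of the population in 1 CD150NEG library (B1) and 3 CD150POS libraries (B5, C2-5 and D2). Whether each library came from its own animals was not stated, so p-values measure only library-to-library spread, which may be technical. In bulk libraries, fewer cells of a type and less RNA per cell cannot be told apart.

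The start regions of the hosts are shown for the pyrimidine run named above and for TATA letters. Any link between these letters and the levels below was not tested. RefSeq (GRCm38) start regions were found for 6 of the 7 hosts, and each matched build mm9 (NCBIM37) exactly at 1 place. Each line gives 50 bases before and 50 bases from the start on, 5′ to 3′. Capitals mark the letters TATAAA or TATATA, searched on both strands (TTTATA is TATAAA on the other strand) from 45 to 16 bases before the start, and the longest run of at least 6 C or T from 10 bases before to 30 bases after it. For Gas5, the one of its 2 RefSeq starts that holds these letters is shown.
Gas5, chr1:162965247-162965346, plus strand: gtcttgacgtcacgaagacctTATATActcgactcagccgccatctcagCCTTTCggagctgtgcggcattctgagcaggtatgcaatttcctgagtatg
Snhg1, chr19:8797927-8798026, plus strand: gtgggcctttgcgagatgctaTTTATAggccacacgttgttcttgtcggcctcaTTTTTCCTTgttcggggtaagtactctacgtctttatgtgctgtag
Snhg5, chr9:88417686-88417785, minus strand: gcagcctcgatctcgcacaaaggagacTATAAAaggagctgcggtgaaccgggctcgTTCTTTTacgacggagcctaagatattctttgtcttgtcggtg
Snhg8, chr3:123211205-123211304, minus strand: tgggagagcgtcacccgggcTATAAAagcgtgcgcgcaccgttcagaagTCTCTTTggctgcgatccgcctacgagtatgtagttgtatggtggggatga
Snhg12, chr4:131864543-131864642, plus strand: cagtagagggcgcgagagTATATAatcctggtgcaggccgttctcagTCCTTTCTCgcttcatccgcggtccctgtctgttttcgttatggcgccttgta
Snhg3, chr4:131909552-131909651, minus strand: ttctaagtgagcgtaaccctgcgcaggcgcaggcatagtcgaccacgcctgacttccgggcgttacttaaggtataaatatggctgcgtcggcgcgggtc

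Both kinds of letters were found in 5 of the 6 hosts, against 1.49% of 32544 mouse start regions of the same length in the RefSeq table. The TATA letters alone stood in 3.5% and the pyrimidine run alone in 35.1% of those regions. Counted from the start base, the TATA letters began at -29 in Gas5 and Snhg1, -30 in Snhg8, -32 in Snhg12 and -23 in Snhg5. The pyrimidine run had 6 bases in Gas5, 7 in Snhg5 and Snhg8, and 9 in Snhg1 and Snhg12. Counted in the same way, it began at -1 in Gas5 and Snhg8 and -3 in Snhg12. In Snhg1 and Snhg5 it began past the start base, at 4 and 7. The other Gas5 start and the Snhg3 start had neither in the windows searched. These matches describe letters, and binding of a factor was not measured.

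In the GENCODE M1 annotation of the same build, 5 of the hosts were placed: Gas5 at chr1:162964553-162968670, Snhg1 at chr19:8797986-8800932, Snhg3 at chr4:131903929-131909601, Snhg5 at chr9:88415894-88417721 and Snhg12 at chr4:131864593-131866939. Their bodies held 25 annotated snoRNAs, 20 of the C/D kind and 5 of the H/ACA kind: 9 in Gas5, 8 in Snhg1, 4 in Snhg12, 2 in Snhg3 and 2 in Snhg5. RefSeq names 1 snoRNA in Snhg6 (Snord87) and 1 in Snhg8 (Snora24). Gas5 and Snhg1 held C/D snoRNAs alone, Snhg3 held Snora73a and Snora73b alone, and Snhg12 held 3 H/ACA snoRNAs beside Snord99. In GENCODE M1, at least 1 annotated exon of a host transcript touched 21 of the 25. The annotation used for counting was not given, so whether a host's count includes reads from snoRNA sequence is not known. Gas5 overlaps Zbtb37 on the other strand, and Snhg3 overlaps Rcc1 on the same and Gm17300 on the other strand; whether the counting used the strand was not given, so the counts of these 2 hosts are uncertain to that extent.

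The 4 snoRNAs below are those whose own counts are used most in what follows. Their counted lengths were 65 bases for Snord47 and 56 for Snord99, against 77 and 74 in GENCODE M1. For Snord22 and Snora16a both lengths were the same, 126 and 136 bases. Capitals mark TGATGA, the letters of the C box, CTGA, those of the D box near the end, or, in an H/ACA snoRNA, ACA near the end.
Snord47 (in Gas5), chr1:162968213-162968289, plus strand: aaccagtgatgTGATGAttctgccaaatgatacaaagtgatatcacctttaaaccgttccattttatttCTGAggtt
Snord22 (in Snhg1), chr19:8800356-8800481, plus strand: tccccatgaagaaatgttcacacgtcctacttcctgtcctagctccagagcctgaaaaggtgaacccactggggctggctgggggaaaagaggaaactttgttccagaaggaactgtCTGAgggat
Snora16a (in Snhg12), chr4:131865380-131865515, plus strand: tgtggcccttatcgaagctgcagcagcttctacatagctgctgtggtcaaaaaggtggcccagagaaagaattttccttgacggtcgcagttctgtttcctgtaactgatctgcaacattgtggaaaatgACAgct
Snord99 (in Snhg12), chr4:131866606-131866679, plus strand: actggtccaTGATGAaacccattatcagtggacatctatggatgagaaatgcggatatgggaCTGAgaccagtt

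All 7 hosts were counted in all 29 libraries and passed the filter on low counts in every fit. Per kilobase of counted exon, the median level over the 29 libraries was 114 CPM per kb for Snhg1, 71.4 for Gas5, 48.1 for Snhg5, 43.0 for Snhg12, 27.7 for Snhg6, 19.6 for Snhg8 and 7.54 for Snhg3. Gas5 led in CPM, with a median of 182.3. Its counted length is 2554 bases against 476 for Snhg1. The order per kilobase depends on these counted lengths, whose annotation was not given. Snhg1, host of Snord22, was the steadiest, with a median coefficient of variation within a group of 11.3% and 1.71 times between its lowest and highest library. Gas5 varied by a median of 27.4% within a group. Snhg3 had raw counts from 11 to 174. Its CPM spread 16.7-fold, from 0.61 in CD150POS D1 to 10.2 in CD150POS B5, so its differences are the least precise of the 7. When the 8 groups were ordered by mean level, neighbouring groups overlapped in 7 of 7 neighbouring pairs for every host.

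**Figure D1:**
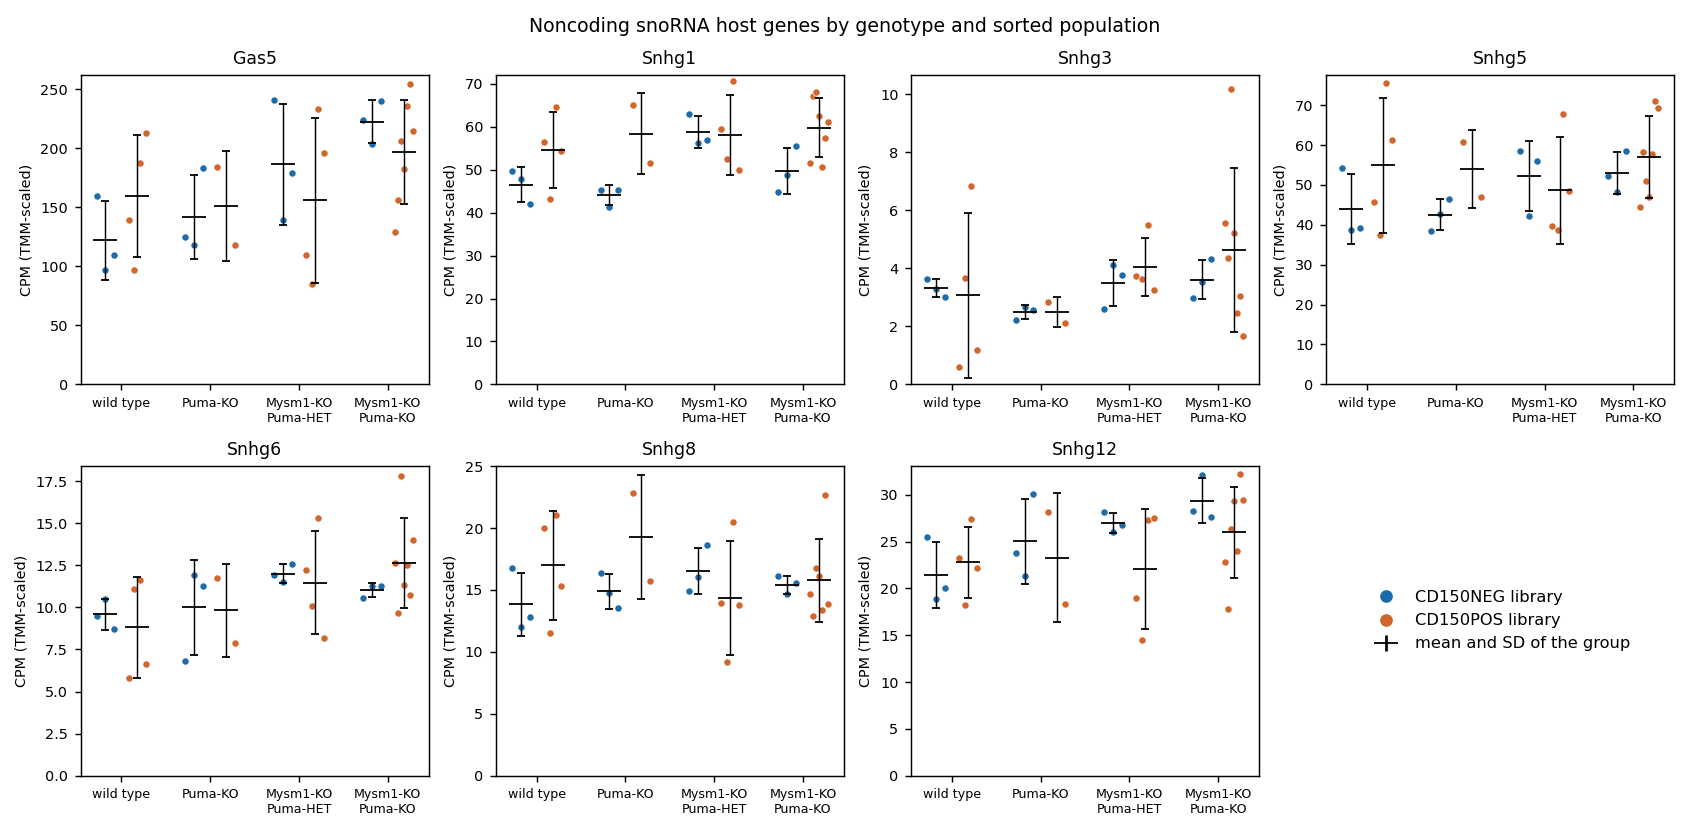
Level of each of the 7 host genes in every library, in TMM-scaled CPM, by genotype; blue points are CD150NEG and orange points CD150POS libraries, and bars give the mean and SD of a group. The 3 CD150NEG Mysm1-/-Puma-/- libraries sit between 203.7 and 240.0 CPM for Gas5, above all 3 wild-type libraries of that population. Between these groups 21.1% of all genes had separate libraries.

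Across 15 comparisons and 7 hosts, 105 tests in all, none passed an adjusted p of 0.05 by edgeR's quasi-likelihood test with Benjamini-Hochberg adjustment over all genes; 9 of the 105 had an unadjusted p under 0.05. DESeq2 called 1 of the 105, with 7 at an unadjusted p under 0.05; limma voom with quality weights called 0, with 10; and limma-trend on the deposited CPM called 1, with 10. The 1 test called by DESeq2 and by limma-trend was the same: Gas5 in CD150NEG cells without Mysm1 and Puma against wild type. The comparisons within a population share groups, so their results are not independent of each other. The share of all genes with separate libraries is given further below for each comparison between groups.

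Gas5 was first found as an RNA that accumulates in growth-arrested cells. Of the hosts, it had the largest fitted difference in each CD150NEG comparison of Mysm1-/- with Mysm1-intact cells. In CD150NEG wild-type libraries it was at 159.9 CPM in D2, 96.7 in D3 and 109.2 in D4. In Mysm1-/-Puma-/- libraries it was at 223.7 CPM in B1, 203.7 in B3 and 240.0 in B5. The lowest of the 3 mutant libraries was above the highest wild-type library, and 21.1% of all genes had separate libraries in this comparison. The means were 222.5 ± 18.2 and 121.9 ± 33.5 CPM (SD, n = 3 each), the log2 fold change was 0.81 ± 0.22 (standard error), and the edgeR adjusted p was 0.0578 (unadjusted 0.00145). In that comparison edgeR called 2.31% of all genes. The value passed the threshold with DESeq2 (adjusted p = 0.00502), with limma-trend (0.0213), without the low-count filter (0.0489), in a fit of the compared groups alone (0.0183) and without wild-type library D2 (0.0266), and across all alternatives the adjusted p ran from 0.00502 to 0.76.

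Other features of the libraries moved with this contrast. In the CD150NEG Mysm1-/-Puma-/- libraries the summed level of 114 small nucleolar and Cajal body RNA rows was 360 to 434 CPM, against 243 to 252 CPM in wild type. Of 12 mitosis genes 12 fell, with a median log2 fold change of -0.98, and 11 of 12 p53 target genes rose, with a median of 1.91. The summed level of 10 erythroid genes was 14.96 to 29.1 CPM against 45.1 to 49.0 CPM, although 0 of the 6 tested passed and Hba-a1 was at 0 in every CD150NEG library. The summed level of 9 B-lineage genes was 152 to 1382 CPM against 74.0 to 151 CPM. Of these genes 1, Igj, was called higher. It made up most of the sum, at 139 to 1359 CPM against 58.6 to 130 CPM. Over the 9 genes 4 values were positive and 5 negative, with a median log2 fold change of -0.55. The part of these features in the Gas5 difference was not tested.

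In CD150NEG Mysm1-/-Puma+/- libraries Gas5 was at 240.8 CPM in A1, 139.4 in A2 and 179.0 in A3. A2 lay below wild-type library D2, so these groups overlapped. The mean was 186.4 ± 51.1 CPM (SD, n = 3), 0.64 ± 0.21 above wild type on the log2 scale, with an edgeR adjusted p of 0.255. In CD150NEG Puma-/- libraries Gas5 was at 124.9 CPM in C2, 118.1 in C3 and 182.8 in C5. All 3 lay below the Mysm1-/-Puma-/- libraries, and the log2 difference between those groups was 0.61 ± 0.21 (adjusted p = 0.263 by edgeR). Puma loss alone gave 0.21 ± 0.21 and Puma loss in cells without Mysm1 gave 0.17 ± 0.21, both with overlapping libraries.

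In CD150POS cells Gas5 overlapped in every genotype comparison. The wild-type libraries were at 139.2 CPM in D1, 96.9 in D2, 187.3 in D3-4 and 213.2 in W1. The Mysm1-/-Puma+/- libraries were at 109.3 CPM in A1, 85.3 in A2, 233.1 in A3 and 195.8 in A4. The Puma-/- libraries were at 184.0 CPM in C1-4 and 118.0 in C2-5. The 7 Mysm1-/-Puma-/- libraries ran from 129.4 CPM, with a median of 206.1, to 253.9 CPM. Within that group the 3 libraries with P codes, at 214.3 to 253.9 CPM, lay above the 4 with B codes, at 129.4 to 206.1 CPM. The share of all genes that separate these codes was not counted here. W1 was the highest wild-type library. The log2 difference of double loss from wild type was 0.32 ± 0.26 (adjusted p = 0.81 by edgeR), and 0.26 ± 0.30 without the P and W libraries. For Puma loss in cells without Mysm1 it was 0.29 ± 0.26, and 0.06 ± 0.28 without them. The effect of Mysm1 loss differed between the populations by -0.64 ± 0.41 (CD150POS minus CD150NEG), with an edgeR adjusted p of 0.9999.

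Snhg12, host of 3 H/ACA snoRNAs and Snord99, was the other host with values for which double loss and wild type did not overlap in CD150NEG cells and an unadjusted p under 0.05. It was at 28.3 CPM in B1, 32.1 in B3 and 27.7 in B5, against 25.5 in D2, 18.9 in D3 and 20.04 in D4. The log2 difference was 0.40 ± 0.17 (unadjusted p = 0.0311, adjusted p = 0.31 by edgeR). The Mysm1-/-Puma+/- libraries, at 28.2 CPM in A1, 26.1 in A2 and 26.8 in A3, also lay above all wild-type libraries, by 0.36 ± 0.17. The Puma-/- libraries, at 23.8 CPM in C2, 21.3 in C3 and 30.1 in C5, spanned both. In CD150POS cells the genotypes overlapped, and Mysm1 loss gave 0.02 ± 0.23.

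Snhg1, which held 8 C/D snoRNAs, showed a different order in CD150NEG cells. The Mysm1-/-Puma+/- libraries were highest, at 63.0 CPM in A1, 56.3 in A2 and 56.9 in A3. Wild-type libraries were at 49.7 CPM in D2, 47.9 in D3 and 42.0 in D4, and Mysm1-/-Puma-/- libraries at 44.8 in B1, 48.9 in B3 and 55.6 in B5. The first group overlapped with neither of those groups, with a log2 difference from wild type of 0.36 ± 0.14 (unadjusted p = 0.0213, adjusted p = 0.39 by edgeR). Against the Mysm1-/-Puma+/- libraries, the Mysm1-/-Puma-/- libraries gave -0.32 ± 0.14 (unadjusted p = 0.0394, adjusted p = 0.262). Double loss and wild type differed by 0.04 ± 0.14. In CD150POS cells all Snhg1 groups overlapped, with group means between 54.7 and 59.8 CPM.

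Snhg5, host of a pair of U50 snoRNA genes, was at 44.0 ± 8.78 CPM in CD150NEG wild type, 42.6 ± 3.97 in Puma-/-, 52.3 ± 8.77 in Mysm1-/-Puma+/- and 53.01 ± 5.23 in Mysm1-/-Puma-/- cells (SD, n = 3 each). Its libraries overlapped in each comparison of CD150NEG genotypes except Mysm1-/-Puma-/- against Puma-/-, where the log2 difference was 0.28 ± 0.17 (adjusted p = 0.61 by edgeR). In CD150POS cells it ran from 37.4 to 75.7 CPM within the wild-type group alone. That range held every CD150POS library of the other genotypes.

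Snhg6, host of Snord87, was at 12.0 ± 0.56 CPM in CD150NEG Mysm1-/-Puma+/- and 11.04 ± 0.40 CPM in Mysm1-/-Puma-/- libraries, against 9.58 ± 0.90 CPM in wild type (SD, n = 3 each). Both mutant groups lay above all 3 wild-type libraries, by 0.35 ± 0.22 and 0.15 ± 0.22 on the log2 scale, neither with an unadjusted p under 0.05. In CD150POS cells the 7 Mysm1-/-Puma-/- libraries ran from 9.68 CPM, with a median of 12.5, to 17.8 CPM. The wild-type libraries were at 5.83 CPM in D1, 11.1 in D2, 11.6 in D3-4 and 6.66 in W1. The groups overlapped, with a log2 difference of 0.54 ± 0.25 (unadjusted p = 0.0383, adjusted p = 0.66 by edgeR).

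Snhg8, host of Snora24, had group means between 13.9 and 19.3 CPM and no comparison with an unadjusted p under 0.05. Snhg3, host of the Snora73 pair, a snoRNA known for its part in early cleavage of the ribosomal RNA precursor rather than in pseudouridylation, had group means between 2.48 and 4.63 CPM. Its highest library was CD150POS B5, at 10.2 CPM, and its lowest was CD150POS D1, at 0.61 CPM. Among CD150POS Mysm1-/-Puma-/- libraries the 3 with P codes, at 1.67 to 3.03 CPM of Snhg3, lay below the 4 with B codes, at 4.35 to 10.2 CPM. Snhg1, Snhg5, Snhg6, Snhg8 and Snhg12 overlapped between these codes. As the share of all genes that separate them was not counted, no reading is attached to the separation of Gas5 and Snhg3. The log2 difference of Snhg3 for double loss in CD150POS cells was 0.60 ± 0.53, or 0.76 ± 0.55 when P and W codes were left out. For Puma loss without Mysm1 it was 0.14 ± 0.52, or 0.58 ± 0.50 when they were left out. In CD150NEG cells the 3 Puma-/- libraries, at 2.23 to 2.67 CPM, lay below the 3 wild-type libraries, at 3.0 to 3.62 CPM, with a log2 difference of -0.42 ± 0.34 (unadjusted p = 0.23, edgeR).

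Read as a group, the hosts had positive fitted differences in all 3 CD150NEG comparisons that contrast Mysm1-/- with Mysm1-intact cells. For Mysm1 loss against wild type 7 of 7 were positive, as were 9492 of all 21168 genes tested, with a median log2 difference of 0.35 against -0.05 over all genes. In that comparison 0 of 7 were called against 0.869% of all genes, 3 of 7 had an unadjusted p under 0.05 against 9.54%, and 3 of 7 (Snhg1, Snhg6 and Snhg12) had separate libraries against 16.3%. For double loss the median was 0.15 against 0.02 over all genes, 2 of 7 had an unadjusted p under 0.05 against 13.1%, and 3 of 7 (Gas5, Snhg6 and Snhg12) were separate against 21.1%. There, too, 7 of 7 were positive, as were 11079 of all genes. For Mysm1 loss in cells without Puma the median was 0.19 against 0.03; 7 of 7 and 11142 of all genes were positive. Of the hosts 0 were called against 1.35% of all genes, 1 had an unadjusted p under 0.05 against 11.0%, and 3 of 7 (Gas5, Snhg3 and Snhg5) were separate against 17.8%. The hosts with separate libraries thus differed from comparison to comparison.

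The comparisons that change Puma alone gave smaller values. For Puma loss in CD150NEG cells without Mysm1, the median over the hosts was -0.06 against 0.09 over all genes; 0 of 7 were called against 1.24%, 1 of 7 had an unadjusted p under 0.05 against 17.0%, and 2 of 7, Snhg1 and Snhg6, had separate libraries against 21.9%. For Puma loss alone in CD150NEG cells the median was 0.04 against -0.01; 0 of 7 hosts and 0.0% of all genes were called, and 1 of 7, Snhg3, was separate against 7.04%. By edgeR 324 genes, or 1.53%, and 0 of 7 hosts had an unadjusted p under 0.05 in that comparison; DESeq2 called 2 genes, and limma voom and limma-trend called 0.

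In CD150POS cells the libraries of every host overlapped in all 5 genotype comparisons. The median log2 difference over the hosts was 0.03 for Mysm1 loss, 0.20 for double loss, 0.20 for Mysm1 loss without Puma, 0.14 for Puma loss without Mysm1 and -0.00 for Puma loss alone; with RLE scaling the first became -0.04 and the last 0.03. Over all genes edgeR called 0.454%, 0.291%, 0.115%, 0.0% and 0.0% in the same order. The shares of genes with separate libraries were 5.16%, 1.91%, 11.6%, 0.377% and 8.69%. An unadjusted p under 0.05 was found for 1 host, Snhg6 in double loss, and for 8.71%, 7.43%, 9.75%, 3.81% and 1.22% of all genes. Between the populations, the effect of Mysm1 loss differed by the adjusted p for 0 of 7 hosts and 0.00916% of all genes, and by the unadjusted p for 0 of 7 and 3.67%.

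**Figure D2:**
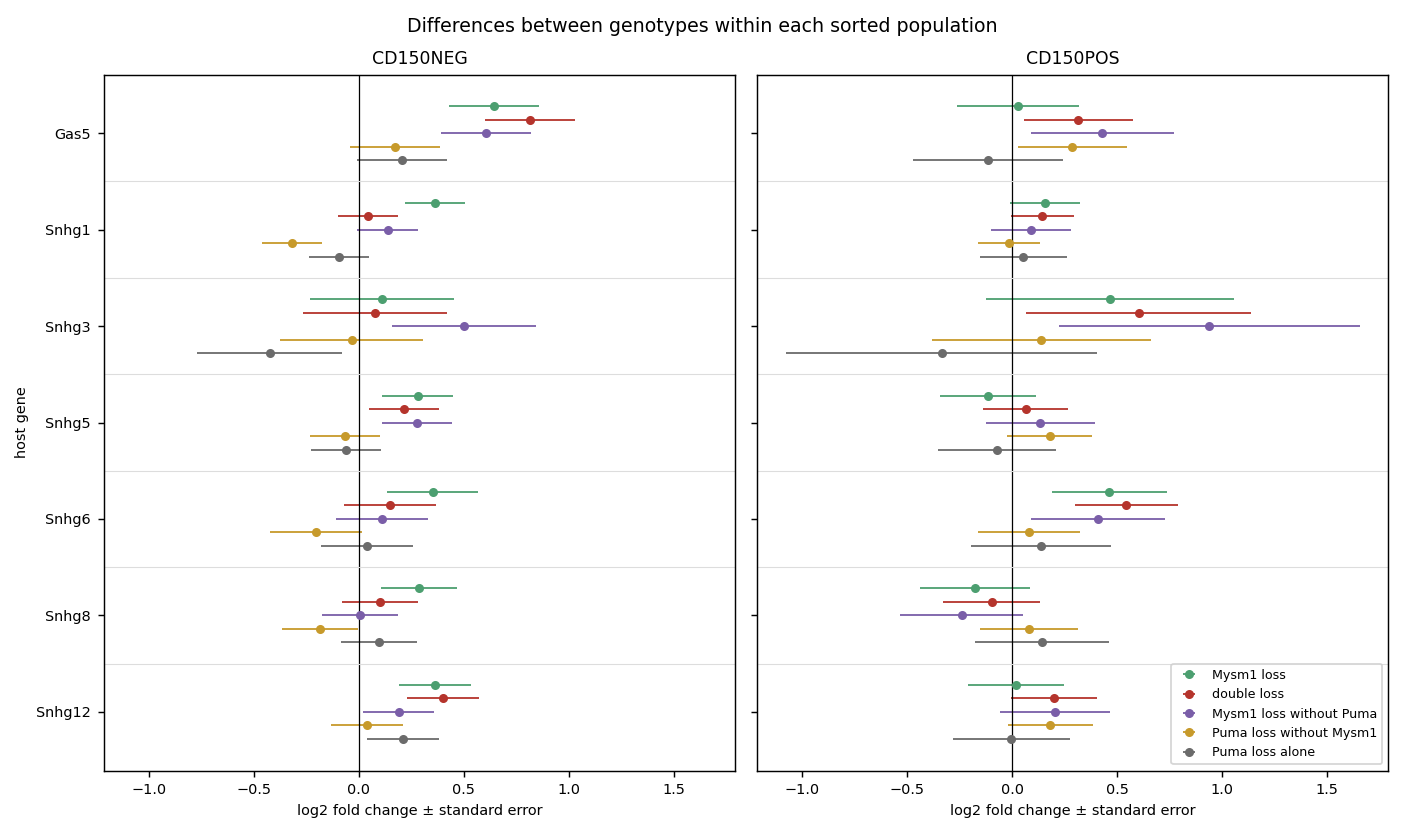
Fitted log2 fold changes of the 7 hosts in 5 genotype comparisons (colours), with standard errors, for CD150NEG cells on the left and CD150POS cells on the right; values right of 0 are higher in the genotype with the loss. In CD150NEG cells the 3 comparisons of Mysm1-/- with Mysm1-intact cells lie right of 0 for all hosts, largest for Gas5 at 0.81 in double loss, while CD150POS values lie on both sides of 0 with wider errors.

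Between the 2 populations of 1 genotype, CD150POS against CD150NEG, no host was called. The shares of all genes called were 7.15% in wild type, 5.9% in Mysm1-/-Puma+/-, 12.3% in Mysm1-/-Puma-/- and 4.94% in Puma-/- cells, and 17.4%, 16.1%, 23.0% and 16.4% had an unadjusted p under 0.05. Snhg1 in Puma-/- cells was the 1 host that did. In wild type the median log2 difference over the hosts was 0.23, against 0.05 over all genes, and all 7 overlapped, against 18.2% of all genes with separate libraries. In Mysm1-/-Puma+/- cells it was -0.10 against -0.00, and in Mysm1-/-Puma-/- cells 0.10 against -0.07, again with all 7 overlapping, against 14.9% and 14.1% of all genes with separate libraries. In Puma-/- cells Snhg1, at 65.1 CPM in C1-4 and 51.7 in C2-5 of CD150POS cells, lay above the CD150NEG libraries at 45.4 CPM in C2, 41.4 in C3 and 45.4 in C5. Its log2 difference was 0.41 ± 0.17 (unadjusted p = 0.0226, adjusted p = 0.201 by edgeR), and Snhg5 was also separate; with 2 against 3 libraries 40.9% of all genes were.

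Some of the hosts were high or low together from library to library. On the log2 CPM scale over the 29 libraries, Gas5 correlated with Snhg12 at Pearson r = 0.82 (Spearman 0.76) and with Snhg5 at r = 0.82 (Spearman 0.83). Without the 2 libraries farthest from the median of Gas5 these were 0.76 and 0.79, and after the group means were subtracted they were 0.80 and 0.85. Within CD150NEG libraries (n = 12) they were both 0.88, and within CD150POS libraries (n = 17) they were 0.84 and 0.83. CD150POS library A2, for example, was the lowest of all libraries for Gas5 and for Snhg12, at 85.3 and 14.5 CPM, and the lowest but 1 of the CD150POS libraries for Snhg5, at 38.6 CPM.

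The other pairs were looser. Over the 21 pairs of hosts the median r was 0.38, from -0.00 between Snhg3 and Snhg8 to 0.82. Snhg3 and Snhg6 reached 0.70, which fell to 0.47 without the 2 libraries farthest from the median of Snhg3 (Spearman 0.44). The libraries share normalisation and depth, and no p is attached to these values. With the log2 library total the hosts correlated at -0.35 (Snhg1) to 0.09 (Snhg12), and with the log2 background level at -0.28 (Snhg5) to 0.04 (Snhg3). With the summed small RNA level they correlated at 0.21 (Snhg6) to 0.63 (Snhg1), Gas5 at 0.46. Without the 2 libraries farthest from the median of that level, Gas5 was at 0.45 and Snhg1 at 0.55, while Snhg6 came to 0.01 and Snhg3 went from 0.34 to 0.05.

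**Figure D3:**
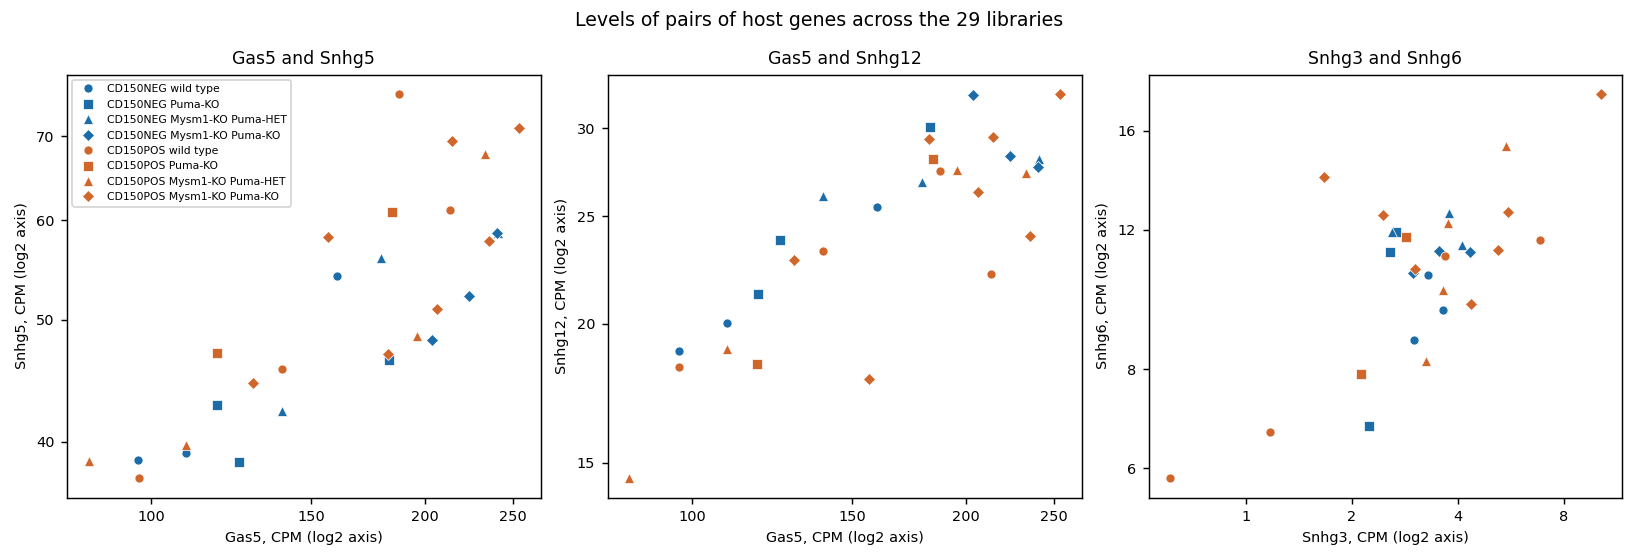
CPM of 2 hosts against each other in each of the 29 libraries, on log2 axes; colour gives the population and symbol the genotype. Libraries high in Gas5 are high in Snhg5 and in Snhg12 (r = 0.82 each) in both populations, while the relation of Snhg3 and Snhg6 (r = 0.70) leans on a few libraries at either end.

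Measured against the mean standardised level of the 7 hosts, the 8 genes most alike among 8234 other genes were Vmp1 (r = 0.77), Araf (0.76), Tbce (0.75), Cdkal1 (0.74), Scarna2 (0.71), Scarna13 (0.69), Jtb (0.69) and Zfp800 (0.68). Scarna2 and Scarna13 are small Cajal body RNAs, which guide the marking of spliceosomal RNAs. The 95th percentile of r over all 8234 genes was 0.46. After group means were subtracted the 8 genes kept r of 0.64 to 0.74, and 7 of the 8 were among the top 8 again over the 25 libraries outside the P and W codes.

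The snoRNAs themselves had rows of their own for 8 of the 28 names looked for: Snord47 (Gas5), Snord22 (Snhg1), Snord87 (Snhg6), Snora24 (Snhg8) and Snora16a, Snora44, Snora61 and Snord99 (Snhg12). Snora24 had 0 counts in all 29 libraries; the counted length of Snhg8, 785 bases, equals its RefSeq span. Snord22 was the most abundant, with a median of 18.5 CPM, and the others had medians between 0.49 and 2.37 CPM. Short RNAs are poorly held by libraries of this kind, and reads in these rows may come from the unspliced host as well as the released snoRNA; the counts cannot tell these apart. Snord47 correlated with Gas5 at r = 0.72 over the 29 libraries (0.71 after group means were subtracted) and Snord22 with Snhg1 at 0.60 (0.47). The 4 snoRNAs of Snhg12 correlated with it at 0.08 (Snord99) to 0.33 (Snora61).

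Between CD150POS and CD150NEG wild-type cells 2 of the 7 tested snoRNA rows rose, against 7.15% of all genes called. None of the 7 hosts was called there, and whether snoRNA rows and hosts differed was not tested. Snord22 was at 21.1 CPM in D1, 12.7 in D2, 42.8 in D3-4 and 29.3 in W1 of CD150POS cells, against 9.69 in D2, 9.73 in D3 and 14.1 in D4 of CD150NEG cells. One CD150POS library, D2, fell within the CD150NEG range. The log2 difference was 1.25 ± 0.33 (adjusted p = 0.0163 by edgeR), and the call was lost without CD150POS D3-4 (0.105), CD150NEG D2 (0.0956) or CD150NEG D3 (0.0922). Its host Snhg1 differed by 0.23 ± 0.14 in the same comparison. Snora16a, at 0.50 to 3.95 CPM against 0.30 to 0.72 CPM, gave 2.34 ± 0.68 (adjusted p = 0.0312), a call lost without any 1 of 6 of the 7 libraries, and its host Snhg12 gave 0.09 ± 0.21.

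In Puma-/- cells 1 of 7 snoRNA rows, Snord99, rose between the populations, against 4.94% of all genes called. It was at 4.28 CPM in C1-4 and 2.37 in C2-5 of CD150POS cells. The CD150NEG libraries were at 0.98 CPM in C2, 0.70 in C3 and 0.71 in C5. These libraries did not overlap, and with 2 against 3 libraries 40.9% of all genes were separate. The log2 difference of Snord99 was 2.06 ± 0.56 (adjusted p = 0.0254 by edgeR). That call was lost without C1-4 or C2-5 of CD150POS cells or C3 or C5 of CD150NEG cells. CD150POS library totals reached lower than CD150NEG totals, and over 98 small nucleolar and Cajal body RNA rows the median difference was 1.04 in wild type and 0.91 in Puma-/- cells; the part of library make-up in these values was not tested.

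Among CD150NEG genotypes no snoRNA row of a host was called. Snord22 was nearest, at 19.0 CPM in B1, 20.8 in B3 and 17.8 in B5 of Mysm1-/-Puma-/- cells, above all wild-type libraries, with a log2 difference of 0.74 ± 0.21 (adjusted p = 0.0823 by edgeR). Its host Snhg1 overlapped in that comparison. All 7 tested snoRNA rows had positive values there, with a median of 0.77 against 0.02 over all genes. Over all 88 small nucleolar and Cajal body RNA rows tested there, these 7 among them, the median was 0.65. A higher median in this comparison was thus not particular to the snoRNAs of the hosts. Of the 7 rows, 5 had separate libraries against 21.1% of all genes. By edgeR, 3 of the 7 had an unadjusted p under 0.05 against 13.1%.

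**Figure D4:**
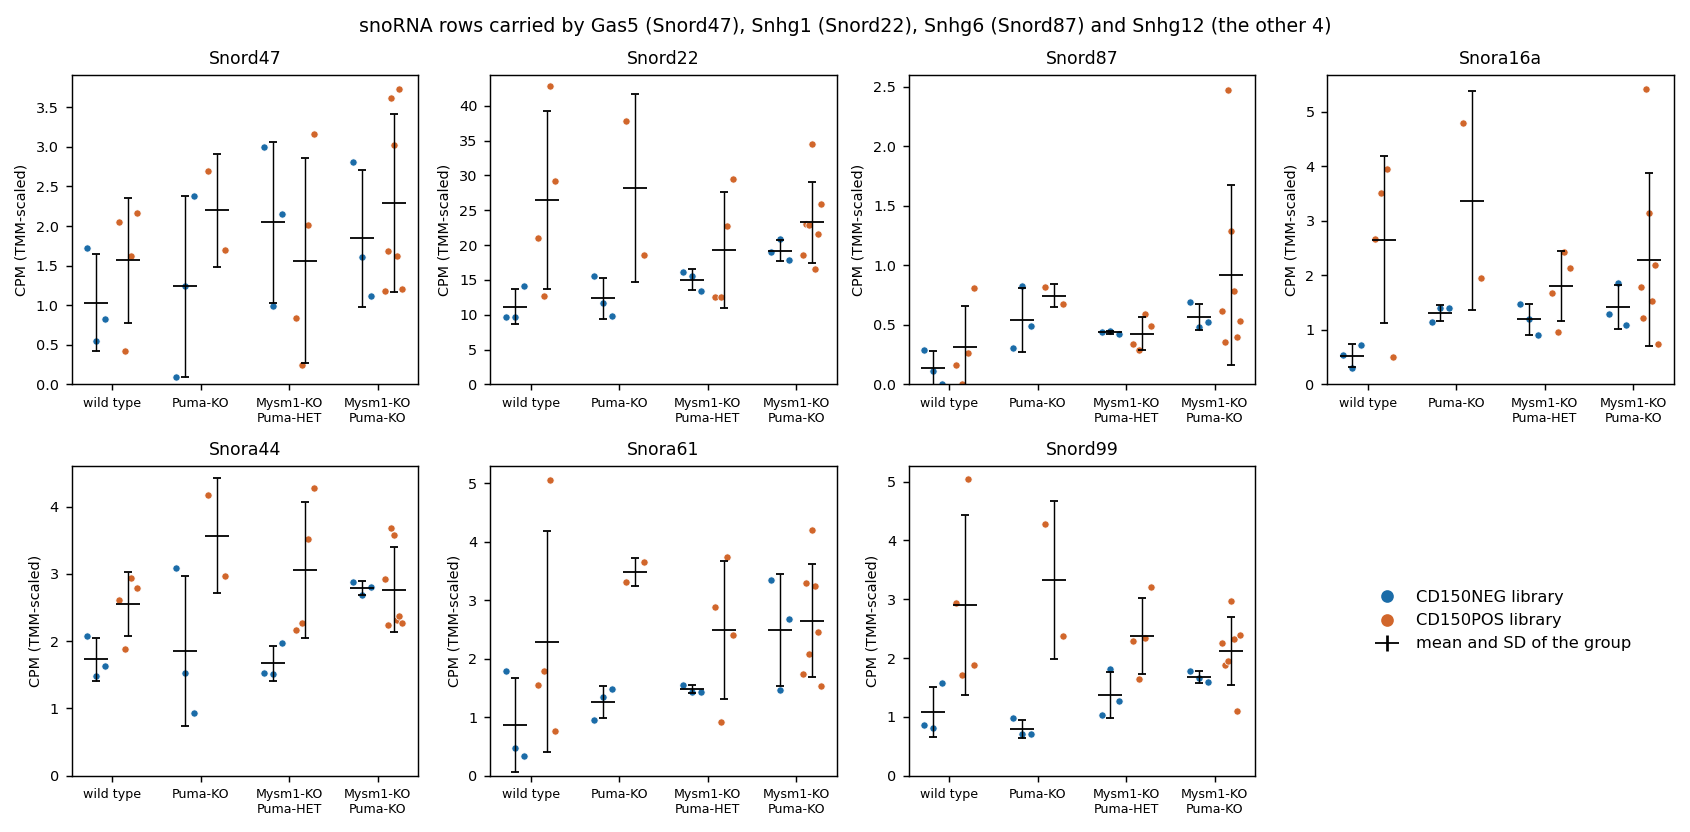
Level of the 7 counted snoRNA rows of the hosts in every library, in TMM-scaled CPM, by genotype, with the mean and SD of each group; blue points are CD150NEG and orange points CD150POS libraries. Wild-type Snord22 reaches 42.8 CPM in CD150POS cells and stays at 14.1 CPM or less in CD150NEG cells, and 1 CD150POS wild-type library lies within the CD150NEG range.

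Genes that carry snoRNAs in the introns of a protein-coding gene, many of them ribosomal proteins and translation factors, were lower in some cases in CD150NEG Mysm1-/-Puma-/- cells. Of 33 such genes 7 fell and 0 rose against wild type, and the median log2 fold change was -0.32 against 0.15 for the 7 noncoding hosts and 0.02 for all genes. Of all genes, edgeR called 2.31% in that comparison. Rps3, a protein of the small ribosomal subunit, was at 661 ± 83.6 CPM against 1227 ± 178 CPM (SD, n = 3 each), a log2 fold change of -0.94 ± 0.16 (adjusted p = 0.00321 by edgeR). Rps2 fell by 0.79 and Sf3b3, a splicing factor subunit, by 0.67 on the log2 scale. The count of 7 became 4 without B3 or without wild-type D2 and 3 without wild-type D3; the calls of Rps3 and Rps2 held without any 1 library, and that of Sf3b3 was lost without D2 or D3. Against Puma-/- cells 6 of the 33 fell, Rps3, Gnb2l1 and Rps2 among them; that count was 1 without Puma-/- library C2, 2 without B3 and 3 without C3, and Rps3 alone of these 3 kept its call without C2. In the comparison with Puma-/- cells edgeR called 1.35% of all genes. The difference between the 2 kinds of host was not tested.

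The other noncoding hosts, 8 of 16 names found in the files, had a median of 0.65 for double loss in CD150NEG cells, with 8 of 8 positive and 1 called. Over all genes the median was 0.02, and 2.31% were called. The one called, Mir17hg (0.83 ± 0.20, adjusted p = 0.03 by edgeR), carries a microRNA cluster rather than snoRNAs; without it 0 of 7 were called, 7 of 7 were positive and the median was 0.46. Its call was lost without any 1 of B1, B3, D2 and D4. Dancr, which hosts an H/ACA snoRNA, gave 0.99 ± 0.33 (adjusted p = 0.16). Against wild type in the Mysm1-/-Puma+/- cells, 7 of 8 were positive with a median of 0.58 and none called, 5 of 8 at an unadjusted p under 0.05. Of all genes, 0.869% were called there and 9.54% had an unadjusted p under 0.05 by edgeR.

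Of 18 proteins that form or assemble snoRNPs 1 fell and 0 rose for double loss in CD150NEG cells, with all 18 values negative and a median of -0.34. The share of all genes called was 2.31%. The gene that fell was Gar1, a core protein of H/ACA snoRNPs, at 17.4 ± 2.41 against 29.99 ± 2.02 CPM (SD, n = 3 each), -0.84 ± 0.20 on the log2 scale (adjusted p = 0.0284 by edgeR), a call lost without any 1 of B1, B3, D2, D3 and D4. Of 19 nonsense-mediated decay factors 1 fell, Rnps1, a splicing-dependent partner of the exon junction complex, at -0.84 ± 0.15 (adjusted p = 0.00522), with a median over the list of -0.06. Rnps1 also fell against Puma-/- cells, by 0.86. Each of the 2 Rnps1 calls held in 14 of 15 alternatives and was lost with a replicate block. In CD150POS cells the double-loss medians of these lists were -0.07 for protein-coding hosts, -0.07 for snoRNP proteins and 0.12 for decay factors. In each list 0 were called, against 0.291% of all genes. At an unadjusted p under 0.05 by edgeR there were 6 of 33, 0 of 18 and 1 of 19, against 7.43% of all genes.

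**Figure D5:**
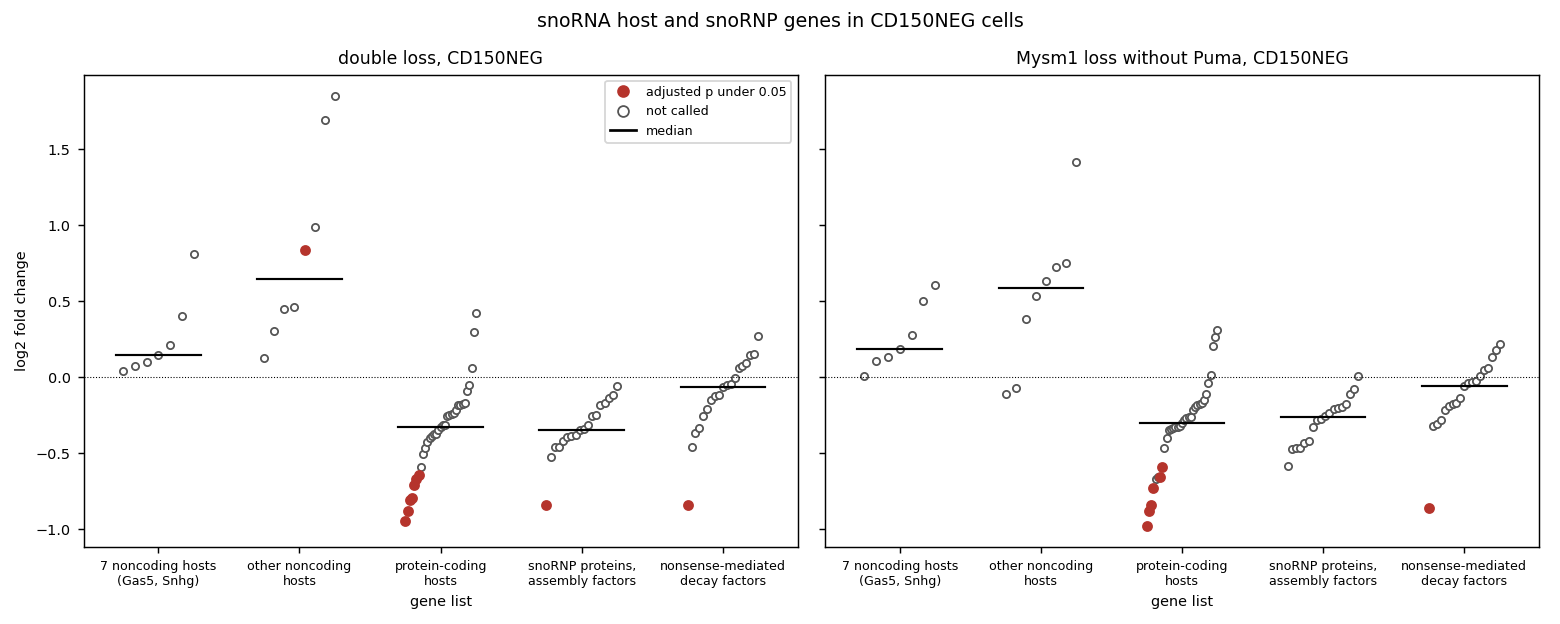
Log2 fold changes of single genes in CD150NEG cells, for Mysm1-/-Puma-/- against wild type on the left and against Puma-/- on the right, grouped by list; filled red points passed an adjusted p of 0.05 and black lines are medians. The 7 noncoding hosts lie above 0 in both, while 7 and 6 of the 33 protein-coding hosts lie below 0 as called genes. Over all genes 2.31% and 1.35% were called.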

How the data were processed

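Raw read counts per gene symbol, deposited for each of 29 libraries, were the values tested. Reads were ribosomal RNA-depleted, stranded, paired 50-base reads, per the labels' protocols. Per the submitters' processing notes, they were trimmed with Trimmomatic 0.33, aligned to mm9 with TopHat2 2.0.9 and Bowtie 1.0.0, and counted with featureCounts. The strand setting, annotation and treatment of reads with several matches are not given in the sources used here. The authors' deposited matrix of normalised CPM, 12578 genes, served in 1 alternative (log2 of CPM plus 1).

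Each population was fitted with its 4 genotypes, and both populations together for comparisons between them. edgeR 4.0.16 in R 4.3.3 was used: filterByExpr (minimum count 10), TMM, quasi-likelihood F test, Benjamini-Hochberg adjustment over all genes tested, threshold 0.05. Standard errors are the absolute log2 fold change over the square root of F, an approximation. Levels shown are CPM scaled by TMM over all 29 libraries, while fold changes within a population use that population's own scaling. Counts of same-group libraries always differed by more than sampling noise (chi-square per degree of freedom 20.75 or more).

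Alternatives were RLE size factors, DESeq2 1.42.0, voom with quality weights and limma-trend (limma 3.58.1), no low-count filter, the compared groups alone, each library left out, a replicate block, the P and W libraries left out and high-background libraries left out. Alternatives for snoRNAs and gene lists were added after seeing the data. The tests were run on simulated counts first.

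The 7 hosts and all lists were chosen with earlier results of these data known. The hosts are named throughout, and up to 4 genes with the smallest p where a list is described; some genes are not reported here. Genes most alike are the 8 with the highest r, among genes whose log2 CPM averaged 4 or more, with the mean standardised level of the hosts. Sequences come from RefSeq (GRCm38 table) and the NCBIM37 genome, which is mm9.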

Additional observations from a re-analysis of the deposited data

Results flagged for a closer look

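Among the 7 hosts in the groups of 4 to 7 libraries, 21 pairs of host and group in all, 1 held a library far from the others. Snhg8 in CD150POS Mysm1-/-Puma-/- cells was at 22.7 CPM in library P2, while the other 6 libraries lay between 12.9 and 16.8 CPM. Chance flags about 1 in 20 such groups.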

How the results depend on the processing

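No host was called in 14 of the 15 comparisons under any alternative run. For double loss in CD150NEG cells, 0 hosts called became 1, Gas5 each time, with DESeq2, without the low-count filter, with limma-trend on the deposited CPM and in a fit of the compared groups alone. Leaving out 1 library gave between 0 and 1, with 1 without wild-type D2. Of the 9 host values with an unadjusted p under 0.05, none changed sign under an alternative run; Gas5 in that comparison ran from 0.47 to 1.06 on the log2 scale. RLE in place of TMM shifted the median of all genes by less than 0.1 in each comparison. For double loss in CD150NEG cells edgeR called 490 of all genes, DESeq2 1029, voom 1105 and limma-trend 909.

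Libraries with the same sample number deviated together in some pairs: 4 of 11 within CD150NEG, 6 of 13 within CD150POS and 4 of 7 pairs of the same code in both populations had r over 0.1. For the same code r was 0.76 in A2, 0.61 in A3, 0.29 in B3, 0.12 in D2, 0.09 in A1, -0.02 in B1 and -0.21 in B5, and 3 of 7 codes matched their own code best. As not every pair did, the numbers were not taken as pairs. With a replicate block by number, Gas5 for double loss in CD150NEG cells was 0.47 (adjusted p = 0.76 by edgeR), and of the protein-coding hosts 0 in place of 7 were called lower. The calls of Mir17hg, Gar1 and Rnps1 in that comparison were lost as well. Between the wild-type populations the block also ended the calls of Snord22 (0.39, adjusted p = 0.73) and Snora16a (2.69, adjusted p = 0.39). In CD150POS cells Puma-/- comparisons could not be fitted with the block.

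Depth limits Snhg3 and the snoRNA rows, with counts as low as 11 and 0. Without high-background libraries the 7 protein-coding hosts called lower became 6, and the 6 called against Puma-/- became 4.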
